A study of Mus musculus with 16 samples.

Results

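The 45 genes described here encode the core machinery of DNA replication and the switch that starts it, and they were chosen by name for their known roles, with earlier results of these data known. They make up 45 of the 55359 genes counted in whole dorsal skin of 16 WT (wildtype) C57Bl/6 mice, which the study's text names as C57Bl/6N. Skin of 4 males and 4 females was taken at 8 weeks of age, 6 h after the last of 3 UVB exposures and on day 5 of the protocol. Another 4 males and 4 females of the same strain and age received no UVB, and the labels place the skin of all mice in telogen, when hair follicles rest. Shaving before irradiation is described in the study's methods. Each library came from 1 mouse, and the text numbers the mice of a group as their labels do. All 45 genes had enough reads to be tested in each comparison, with 15 reads in 1 mouse as the lowest count.

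As background, a cell prepares to copy its genome in G1, when the origin recognition complex with Cdc6 and Cdt1 loads rings of Mcm2 to Mcm7 onto DNA. Late in G1 the kinases of cyclins D and E release E2F factors, which switch on many genes of the replication machinery. At the start of S phase Mcm10, Cdc45 and the GINS complex turn the loaded rings into active helicases. DNA polymerase alpha with primase then starts each new strand, polymerases delta and epsilon extend it while held by the Pcna clamp, and ribonucleotide reductase supplies the nucleotides. In resting skin such genes are used mainly by dividing basal keratinocytes, cells of the hair follicle and some immune cells, and the epidermis is known to thicken through cell division after UVB.

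Levels are given as CPM, counts per 1000000 reads on genes after scaling of the libraries, and responses as log2 fold changes of UVB against no UVB with their standard error (SE). A gene was called higher or lower at a Benjamini-Hochberg adjusted p under 0.1 in edgeR's quasi-likelihood test. The libraries held 16495776 to 33404831 reads on genes (median 21767339), and the 45 genes together took between 0.0656 and 0.114% of them. Basal and suprabasal keratinocyte genes were present in every mouse, as the label of skin requires, with summed levels of at least 5503 and 6906 CPM.

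In keratins of the growing hair, a pair of control libraries stood apart from their label. The summed level of 18 genes of the growing (anagen) hair matrix and shaft was 64.8 and 82.97 CPM in no-UVB males 3 and 4, against 21.3 and 20.4 CPM in no-UVB males 1 and 2 and at most 36.2 CPM in each of the other 12 mice. *Krt71*, a keratin of the inner root sheath that surrounds a growing hair, was at 21.1 and 39.9 CPM in these 2 mice and at no more than 1.75 CPM in every other mouse. Most other keratins of the list were also highest in these 2 mice, such as *Krt85* (1.69 and 3.61 CPM). Not all genes of the list followed. *Hoxc13* was at 4.46 and 4.13 CPM in these 2 mice, above no-UVB males 1 and 2 but below every no-UVB female (4.52 to 5.59 CPM). *Lef1* and *Msx2* in these 2 mice lay within the range of the other mice. The same 2 mice also had more RNA of the replication genes than no-UVB males 1 and 2, both lying above both of those at 38 of the 45 genes, which was so for 23.1% of all genes tested in males. The male responses of the 45 genes, their counts and medians, and the pathway lists are therefore given also without this pair, an alternative that was added after the data were seen, and values include all mice unless stated otherwise.

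To show how the replication genes responded to UVB, their levels were first summed in each mouse. The sum was 732, 701, 949 and 844 CPM in no-UVB males 1 to 4 and 1099, 1204, 1059 and 1151 CPM in UVB males 1 to 4. In females it was 811, 752, 753 and 668 CPM without UVB and 862, 896, 942 and 918 CPM after UVB. Every UVB mouse lay above every no-UVB mouse of its sex, and the 4 UVB males lay above all other mice. The sums of no-UVB males 3 and 4 were the highest of the control males. In such bulk RNA, a larger number of cycling cells and more RNA per cell cannot be told apart.

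**Figure D1:**
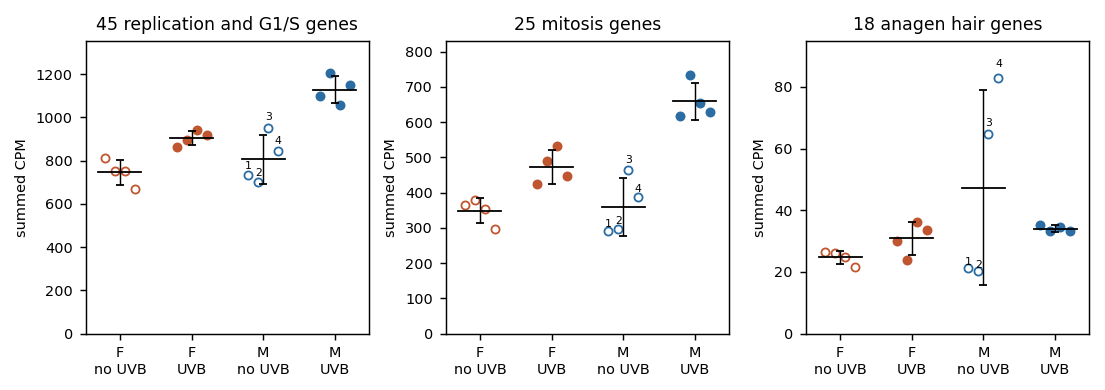
Summed level (CPM) per mouse of the 45 replication and G1/S genes, of 25 mitosis genes and of 18 anagen hair genes in the 4 groups; each point is a mouse, open without UVB and filled after UVB, with the mean (line) and SD (bar) of 4 mice, and the no-UVB males carry their numbers. The replication and mitosis sums are highest in UVB males, while the hair sum is highest in no-UVB males 3 and 4.

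Among males, 35 of the 45 genes were higher after UVB, *Pola1* and *Prim2* were lower, and the other 8 did not pass the test. Of all 16535 genes tested in males, 29.0% were called higher and 30.5% lower. On the log2 scale the 45 genes had a median response of 0.58, beside -0.023 over all genes tested. A rise past a log2 fold change of 1 was found for 5 of them, *Rrm2*, *Orc1*, *Mcm10*, *Cdc6* and *Ccne1*, against 4.08% of all genes. The levels of 28 genes did not overlap between the 4 UVB and 4 no-UVB males and were higher after UVB, which was so for 22.9% of all genes. Against no-UVB males 1 and 2 alone, a comparison with fewer mice, 38 genes were higher in the 4 UVB males without overlap, beside 29.4% of all genes, and the median response was 0.76.

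In females, 28 of the 45 genes were higher after UVB and the same 2 genes, *Pola1* and *Prim2*, were lower. Over all 16883 genes tested in females, 12.8% were called higher and 10.6% lower. Among the 45 genes the median response was 0.31 on the log2 scale, beside 0.0025 over all genes. None of the 45 passed a log2 fold change of 1, a limit that 1.63% of all genes passed, while 33 of the 45 were at an unadjusted p under 0.05, beside 30.3% of all genes. Without overlap between the groups, 24 of the 45 were higher after UVB, against 11.1% of all genes. At an adjusted p under 0.05, 18 of the 45 were called higher in females, beside 8.42% of all genes. At an adjusted p under 0.1, 18 were called higher without UVB female 3 (beside 8.79% of all genes) and 18 without no-UVB female 4 (beside 8.94%).

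**Figure D2:**
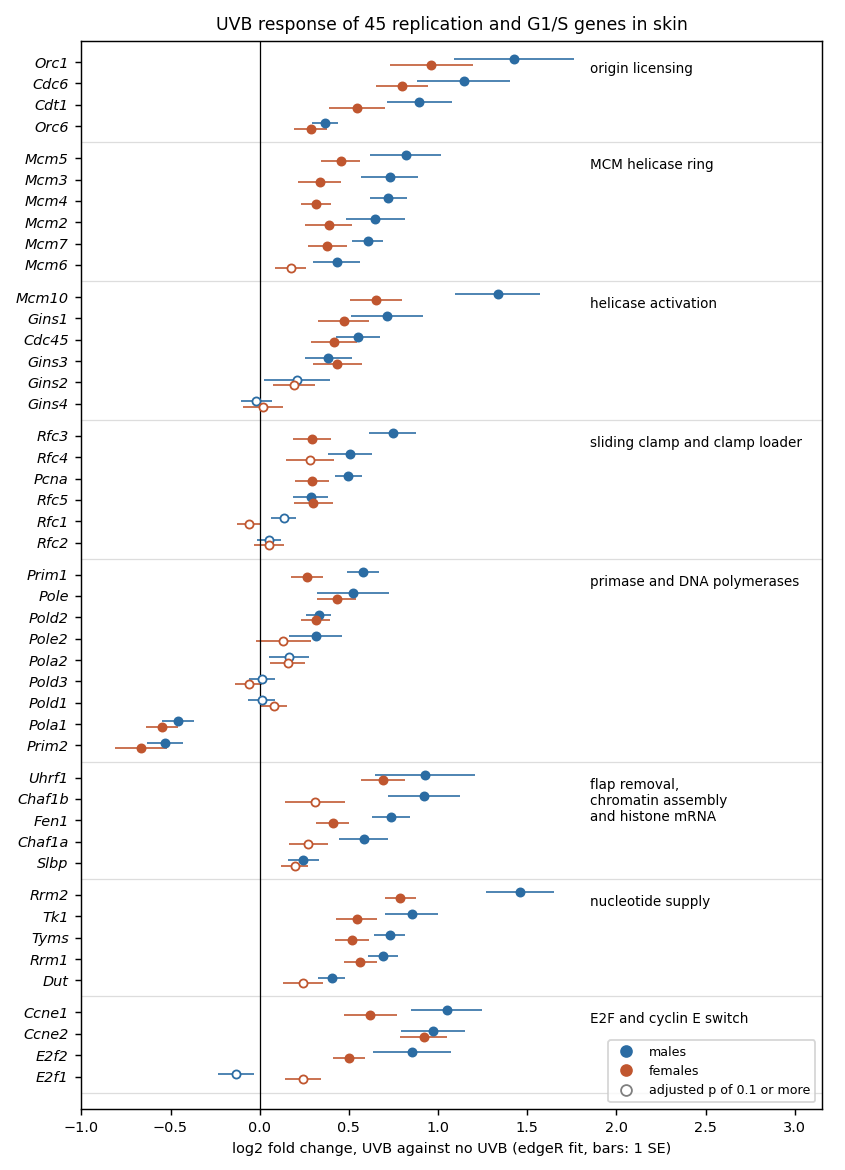
Log2 fold change of UVB against no UVB (x axis, with 1 SE) for each of the 45 genes, grouped by role, in males (blue) and females (orange); filled points have an adjusted p under 0.1. Most genes lie to the right of 0 in both sexes, with *Rrm2* and *Orc1* farthest in males, and *Pola1* and *Prim2* lie to the left in both.

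Since E2F factors are known to act at promoters of replication genes, the RefSeq windows from 250 bases before to 50 bases after the start of transcription were searched for fixed letters on both strands. Windows were available for 37 of the 45 genes. The E2F letters TTTCCCGC, TTTCGCGC, TTTGCCGC or TTTGGCGC were in 14 of the 37 windows (37.8%), beside 493 of 15314 windows of protein-coding genes (3.22%). The letters CCAAT were in 22 of 37 (59.5%, beside 38.8%) and the letters TTTGAA of the cell cycle homology region (CHR) in 4 of 37 (10.8%, beside 14.4%). In 1 window the E2F letters shared bases with CCAAT or CHR letters, and in 2 windows E2F matches on opposite strands overlapped each other. The 14 genes with E2F letters had a median log2 response of 0.67 among males and 0.36 among females, and the 23 genes without them 0.58 and 0.31. The male medians without no-UVB males 3 and 4 were 0.88 and 0.76. The windows printed next belong to 2 genes that rose and carry both motifs (*Orc1* and *Mcm5*), to a gene of large response in males without E2F letters (*Rrm2*) and to a gene that fell although it carries them (*Pola1*). Capitals mark the E2F and CCAAT letters on either strand, each run is 5′ to 3′ on the strand of the gene, and the windows were placed on GRCm39 by an exact match.
Orc1 promoter (chr4:108436401-108436700, plus strand): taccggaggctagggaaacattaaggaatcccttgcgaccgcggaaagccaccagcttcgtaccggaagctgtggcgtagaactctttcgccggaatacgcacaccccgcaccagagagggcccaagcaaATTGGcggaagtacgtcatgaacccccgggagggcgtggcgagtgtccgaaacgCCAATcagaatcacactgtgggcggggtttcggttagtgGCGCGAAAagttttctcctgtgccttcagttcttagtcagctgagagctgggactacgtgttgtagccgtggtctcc
Mcm5 promoter (chr8:75835887-75836186, plus strand): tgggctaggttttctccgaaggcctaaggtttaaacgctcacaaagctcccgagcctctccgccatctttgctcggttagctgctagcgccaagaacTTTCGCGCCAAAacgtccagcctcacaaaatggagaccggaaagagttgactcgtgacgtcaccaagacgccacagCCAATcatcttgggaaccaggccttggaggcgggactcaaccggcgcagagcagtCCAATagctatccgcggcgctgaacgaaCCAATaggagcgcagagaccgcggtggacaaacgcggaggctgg
Rrm2 promoter (chr12:24758003-24758302, plus strand): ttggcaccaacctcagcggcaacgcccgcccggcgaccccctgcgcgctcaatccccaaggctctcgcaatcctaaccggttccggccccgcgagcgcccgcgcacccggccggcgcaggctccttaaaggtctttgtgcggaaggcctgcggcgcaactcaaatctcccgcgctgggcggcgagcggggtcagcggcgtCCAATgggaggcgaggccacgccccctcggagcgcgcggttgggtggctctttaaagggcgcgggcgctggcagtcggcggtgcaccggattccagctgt
Pola1 promoter (chrX:92675712-92676011, minus strand): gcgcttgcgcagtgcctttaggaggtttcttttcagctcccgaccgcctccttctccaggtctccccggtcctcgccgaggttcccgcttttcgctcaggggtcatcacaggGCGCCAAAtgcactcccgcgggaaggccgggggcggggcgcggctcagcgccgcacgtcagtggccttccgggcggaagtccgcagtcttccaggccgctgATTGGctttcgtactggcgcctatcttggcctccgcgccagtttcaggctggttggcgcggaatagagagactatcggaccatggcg
The *Mcm5* window holds 2 overlapping E2F matches and 3 CCAAT boxes, and the *Orc1* window holds 1 E2F match close to the start and CCAAT letters on both strands. The RefSeq start of *Rrm2* lies 442 bases inside the gene as GENCODE annotates it.

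Origin licensing genes had the largest median response of the 8 roles. All 4 were higher after UVB in both sexes, beside 29.0% of all genes in males and 12.8% in females. Their medians were 1.02 in males and 0.67 in females on the log2 scale. *Orc1* (GRCm39 chr4:108436540-108473245, plus strand, 17 exons), the large subunit of the origin recognition complex, had the lowest level per kilobase of transcript of all 45 genes. *Orc1* was at 0.699, 0.783, 2.17 and 2.06 CPM in no-UVB males 1 to 4 and at 4.14, 3.83, 2.69 and 4.33 CPM in UVB males 1 to 4. UVB males did not overlap no-UVB males, although no-UVB males 3 and 4 came close to them. The level of *Orc1* in no-UVB females 1 to 4 was 1.56, 1.03, 1.15 and 0.909 CPM, and in UVB females 1 to 4 it was 2.06, 1.66, 2.79 and 2.56 CPM. The log2 fold change of *Orc1* was 1.43 (SE 0.34) in males (adjusted p = 0.00489) and 0.96 (SE 0.23) in females (adjusted p = 0.0201). *Cdc6*, the loader that places the MCM rings, changed by 1.14 (SE 0.26) in males and 0.80 (SE 0.15) in females on the log2 scale, and *Cdt1*, its partner, by 0.89 (SE 0.18) and 0.55 (SE 0.16). In the fit without no-UVB males 3 and 4 the male value of *Orc1* was 2.38 (SE 0.28), and those of *Cdc6*, *Cdt1* and *Orc6* were 1.65, 1.30 and 0.46, with a role median of 1.47. *Orc6*, another subunit of the complex, responded less. No-UVB males 1 to 4 had 15.8, 16.1, 16.9 and 18.7 CPM of *Orc6*, and UVB males 1 to 4 had 20.9, 21.8, 21.5 and 21.5 CPM. Across UVB females 1 to 4, *Orc6* was at 19.8, 19.1, 23.02 and 19.8 CPM, against 16.7, 16.3, 18.7 and 15.7 CPM in no-UVB females 1 to 4. The groups did not overlap in either sex, with log2 fold changes of 0.37 (SE 0.072) in males (adjusted p = 0.00143) and 0.28 (SE 0.091) in females (adjusted p = 0.0591).

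The 6 subunits of the MCM helicase ring rose together in males, with log2 fold changes from 0.43 (*Mcm6*) to 0.82 (*Mcm5*). In females 5 of 6 rose, and *Mcm6* was at 0.17 (SE 0.086, adjusted p = 0.205). Beside these counts, 29.0% of all genes were called higher in males and 12.8% in females. Per kilobase of transcript the subunits were unequal without UVB, from 4.64 CPM per kb for *Mcm3* to 15.6 for *Mcm6*, although the ring holds 1 copy of each. Without UVB, *Mcm5* was at 22.4, 19.3, 38.3 and 32.5 CPM in males 1 to 4, and after UVB it was at 44.6, 53.3, 47.1 and 50.4 CPM. No-UVB males 3 and 4 lay between the other control males and the UVB males. By mouse number, *Mcm5* was at 26.5, 25.3, 23.4 and 18.997 CPM in no-UVB females and at 28.05, 31.2, 34.8 and 34.4 CPM in UVB females. *Mcm5* changed by 0.82 (SE 0.20) in males (adjusted p = 0.0081) and 0.45 (SE 0.11) in females (adjusted p = 0.0205) on the log2 scale, and neither sex showed overlap between its groups. *Mcm6* was at 43.9, 38.4, 60.3 and 50.2 CPM in no-UVB males 1 to 4 and at 61.5, 69.8, 55.6 and 69.9 CPM in UVB males 1 to 4. Here UVB male 3 lay below no-UVB male 3, and the log2 fold change was 0.43 (SE 0.13, adjusted p = 0.0194). The level of *Mcm6* in no-UVB females 1 to 4 was 48.3, 44.9, 46.2 and 39.2 CPM, and in UVB females 1 to 4 it was 47.3, 45.5, 53.6 and 53.8 CPM. The female groups overlapped. *Mcm2*, *Mcm3*, *Mcm4* and *Mcm7* had log2 fold changes of 0.65, 0.73, 0.72 and 0.61 in males and 0.39, 0.34, 0.32 and 0.38 in females. When no-UVB males 3 and 4 were left out, the male values of *Mcm2* to *Mcm7* became 0.94, 1.038, 0.89, 1.27, 0.68 and 0.76.

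Of the 6 genes of helicase activation, the same 4 were higher in both sexes, and *Gins2* and *Gins4* passed the test in neither. Of all genes tested, 29.0% were called higher in males and 12.8% in females. *Mcm10* (GRCm39 chr2:4994516-5017629, minus strand), a factor needed to activate the helicase, had the largest change of this role. No-UVB males 1 to 4 had 2.38, 1.89, 4.68 and 3.27 CPM of *Mcm10*, and UVB males 1 to 4 had 7.88, 8.81, 6.28 and 7.51 CPM. All 4 UVB males were above all no-UVB males. Across UVB females 1 to 4, *Mcm10* was at 4.12, 5.19, 4.63 and 4.14 CPM, against 3.38, 2.58, 2.95 and 2.68 CPM in no-UVB females 1 to 4. On the log2 scale its response was 1.33 (SE 0.24) in males (adjusted p = 0.00087) and 0.65 (SE 0.15) in females (adjusted p = 0.0143). *Cdc45*, which rides with the ring, changed by 0.55 (SE 0.12) in males and 0.42 (SE 0.13) in females. The 4 GINS subunits, which form 1 complex, had log2 values of different size, and those differences were not tested. *Gins1* was at 0.71 and 0.47, *Gins3* at 0.39 and 0.44 and *Gins2* at 0.21 and 0.19 in males and females. *Gins4* had the highest level of the 4 per kilobase (13.99 CPM per kb without UVB, beside 2.96, 2.25 and 1.60 for *Gins1* to *Gins3*). Without UVB, *Gins4* was at 21.1, 20.5, 18.3 and 22.6 CPM in males 1 to 4, and after UVB it was at 19.8, 22.3, 17.7 and 20.4 CPM. By mouse number, *Gins4* was at 22.3, 18.1, 20.4 and 19.1 CPM in no-UVB females and at 21.9, 23.004, 17.6 and 17.99 CPM in UVB females. The groups overlapped throughout, with log2 fold changes of -0.018 (SE 0.088) and 0.018 (SE 0.11), and several alternatives gave the opposite sign in each sex. Leaving out no-UVB males 3 and 4 changed the male values of *Mcm10*, *Cdc45*, *Gins1*, *Gins2*, *Gins3* and *Gins4* to 1.87, 0.75, 1.102, 0.55, 0.57 and -0.012, and *Gins2* then passed the test (adjusted p = 0.0164).

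**Figure D3:**
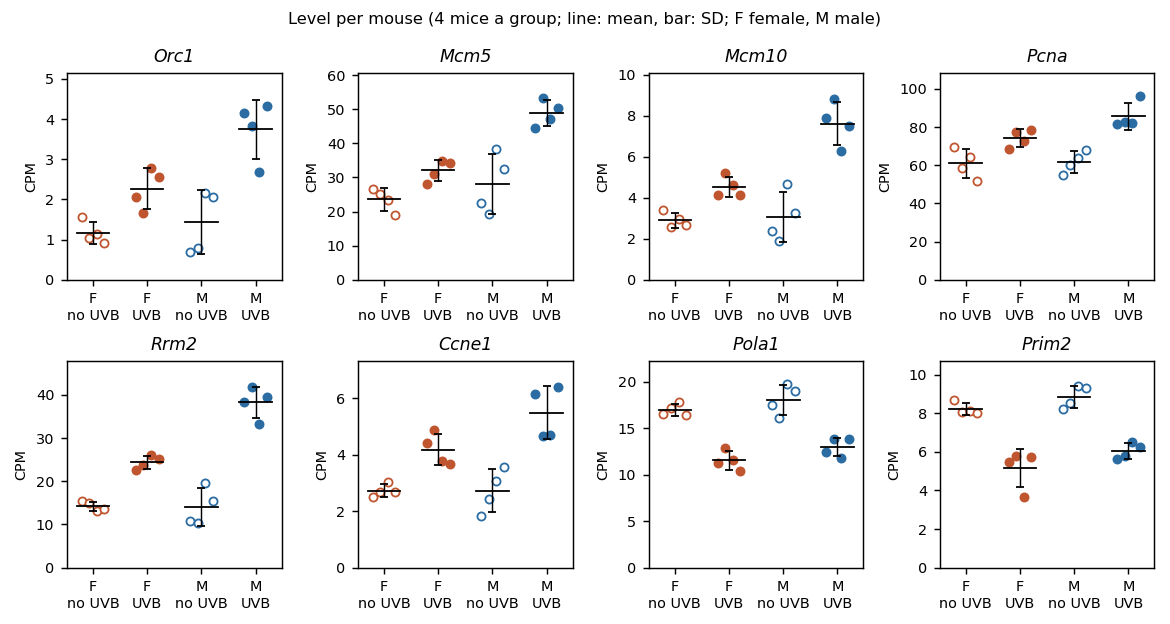
Level (CPM) of 8 of the genes in each mouse by group, open without UVB and filled after UVB, with the mean (line) and SD (bar) of 4 mice. *Orc1*, *Mcm5*, *Mcm10*, *Pcna*, *Rrm2* and *Ccne1* are higher after UVB in both sexes, and *Pola1* and *Prim2* are lower in both.

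The sliding clamp *Pcna* had the highest level per kilobase of all 45 genes, at 40.4 CPM per kb without UVB. *Pcna* was at 54.8, 60.3, 63.9 and 67.8 CPM in no-UVB males 1 to 4 and at 81.6, 82.7, 82.3 and 96.1 CPM in UVB males 1 to 4. UVB males were all above no-UVB males. The level of *Pcna* in no-UVB females 1 to 4 was 69.7, 58.5, 64.1 and 51.6 CPM, and in UVB females 1 to 4 it was 68.2, 77.7, 72.6 and 78.5 CPM. Among females, UVB female 1 lay just below no-UVB female 1. *Pcna* had a log2 fold change of 0.50 (SE 0.076) in males (adjusted p = 0.000266) and 0.29 (SE 0.095) in females (adjusted p = 0.0631), and the female call was lost under upper quartile scaling, in the fit with the replicate number as a block and without any of 5 mice. Processed *Pcna* copies are annotated in the genome, and how reads shared with them were counted is not shown by the files. Its loader, the replication factor C complex, was uneven. *Rfc3* was the loader subunit with the largest change in males. No-UVB males 1 to 4 had 8.62, 7.04, 11.1 and 10.3 CPM of *Rfc3*, and UVB males 1 to 4 had 14.98, 17.3, 14.4 and 14.7 CPM. Across UVB females 1 to 4, *Rfc3* was at 13.5, 10.8, 14.1 and 11.8 CPM, against 11.1, 10.5, 10.1 and 9.50 CPM in no-UVB females 1 to 4. Males did not overlap, with a log2 fold change of 0.75 (SE 0.13, adjusted p = 0.000769), and females did, with 0.29 (SE 0.11, adjusted p = 0.0914). *Rfc4* and *Rfc5* changed by 0.50 and 0.29 in males. Of these, *Rfc5* passed in females as well, at 0.30 (SE 0.11), and *Rfc4* did not, at 0.28 (SE 0.13). *Rfc1* and *Rfc2* passed in neither sex, at 0.14 and 0.052 in males and -0.059 and 0.051 in females. The male values without no-UVB males 3 and 4 were 0.62 for *Pcna* and 0.19, -0.00091, 1.01, 0.73 and 0.42 for *Rfc1* to *Rfc5*, so that *Rfc1* passed the test (adjusted p = 0.074) and the value of *Rfc2* had the opposite sign.

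Primase and polymerase genes had the smallest median response, 0.17 in males and 0.13 in females, and the 4 subunits of DNA polymerase alpha and primase moved apart. *Prim1*, the catalytic primase subunit, rose. Without UVB, *Prim1* was at 14.8, 14.96, 18.7 and 18.004 CPM in males 1 to 4, and after UVB it was at 24.9, 24.6, 24.9 and 23.2 CPM. By mouse number, *Prim1* was at 17.1, 14.3, 16.96 and 14.2 CPM in no-UVB females and at 18.6, 18.3, 18.9 and 19.02 CPM in UVB females. Neither sex overlapped, with log2 fold changes of 0.58 (SE 0.089, adjusted p = 0.000279) and 0.26 (SE 0.089, adjusted p = 0.07). *Prim2*, the regulatory subunit that binds *Prim1*, fell. *Prim2* was at 8.20, 8.52, 9.40 and 9.29 CPM in no-UVB males 1 to 4 and at 5.61, 5.81, 6.49 and 6.26 CPM in UVB males 1 to 4. The level of *Prim2* in no-UVB females 1 to 4 was 8.70, 8.05, 8.12 and 8.03 CPM, and in UVB females 1 to 4 it was 5.46, 5.77, 3.69 and 5.72 CPM. All 4 UVB mice of each sex were below all no-UVB mice, with UVB female 3 the lowest. Its log2 fold change was -0.53 (SE 0.10) in males (adjusted p = 0.00117) and -0.67 (SE 0.14) in females (adjusted p = 0.0128), the smallest value of the 45 genes in each sex.

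*Pola1*, the catalytic subunit of polymerase alpha, fell as well, with a log2 fold change of -0.46 (SE 0.09) in males (adjusted p = 0.00139) and -0.55 (SE 0.09) in females (adjusted p = 0.00341). No-UVB males 1 to 4 had 17.5, 16.1, 19.7 and 18.98 CPM of *Pola1*, and UVB males 1 to 4 had 12.4, 13.8, 11.8 and 13.8 CPM. Across UVB females 1 to 4, *Pola1* was at 11.3, 12.9, 11.6 and 10.4 CPM, against 16.5, 17.1, 17.8 and 16.4 CPM in no-UVB females 1 to 4. Its groups did not overlap in either sex. *Pola2*, the accessory subunit, passed in neither sex (0.17 and 0.16). Of the replicative polymerases, *Pold2* rose in both sexes (0.33 and 0.31), as did *Pole*, the catalytic subunit of polymerase epsilon (0.52 and 0.43), and *Pole2* passed in males alone (0.31, and 0.13 in females). *Pold1*, the catalytic subunit of polymerase delta, was at 0.01 and 0.08. *Pold3*, an accessory subunit of polymerase delta, did not pass either. Without UVB, *Pold3* was at 25.4, 22.6, 27.3 and 24.3 CPM in males 1 to 4, and after UVB it was at 25.9, 24.1, 23.2 and 25.8 CPM. By mouse number, *Pold3* was at 27.7, 25.8, 26.4 and 23.4 CPM in no-UVB females and at 24.1, 24.7, 23.9 and 25.7 CPM in UVB females. Its groups overlapped, with log2 fold changes of 0.013 (SE 0.075) and -0.063 (SE 0.073), and the male value was negative under upper quartile scaling. After no-UVB males 3 and 4 were left out, the male values were -0.33, 0.31, 0.76 and -0.43 for *Pola1*, *Pola2*, *Prim1* and *Prim2* and 0.094, 0.37, 0.087, 0.95 and 0.54 for *Pold1*, *Pold2*, *Pold3*, *Pole* and *Pole2*. *Pola2* was then called higher (adjusted p = 0.0388), *Pola1* and *Prim2* were still called lower (adjusted p = 0.022 and 0.015) and the role median was 0.31.

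*Pola1* and *Prim2* were also the longest of the 45 genes on the genome. *Pola1* (GRCm39 chrX:92348365-92675813, minus strand) spans 327 kb and *Prim2* (GRCm39 chr1:33492888-33709466, minus strand) 217 kb from start to end, introns included, and the next longest, *Rfc1* and *Pole*, span 74.2 and 52.1 kb. After these values were seen, the responses of all tested protein-coding genes were set against gene length. In males, 645 of 771 genes over 200 kb (83.7%) were called lower, beside 29.5% of shorter genes, and 25 were called higher. In females, 466 of 779 genes over 200 kb (59.8%) were called lower, beside 8.70% of shorter genes. Median log2 fold changes over all such genes were 0.077 in males for genes up to 10 kb, 0.034 for 10 to 30 kb, -0.025 for 30 to 100 kb, -0.26 for 100 to 200 kb and -0.65 beyond. In females they were 0.12, 0.051, -0.028, -0.18 and -0.45. The other 43 genes lay below 100 kb, with medians in males of 0.67 for 8 genes up to 10 kb, 0.67 for 28 genes of 10 to 30 kb and 0.52 for 7 genes of 30 to 100 kb. In females those medians were 0.35, 0.31 and 0.42. The part of gene length in the fall of *Pola1* and *Prim2* was not tested.

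**Figure D4:**
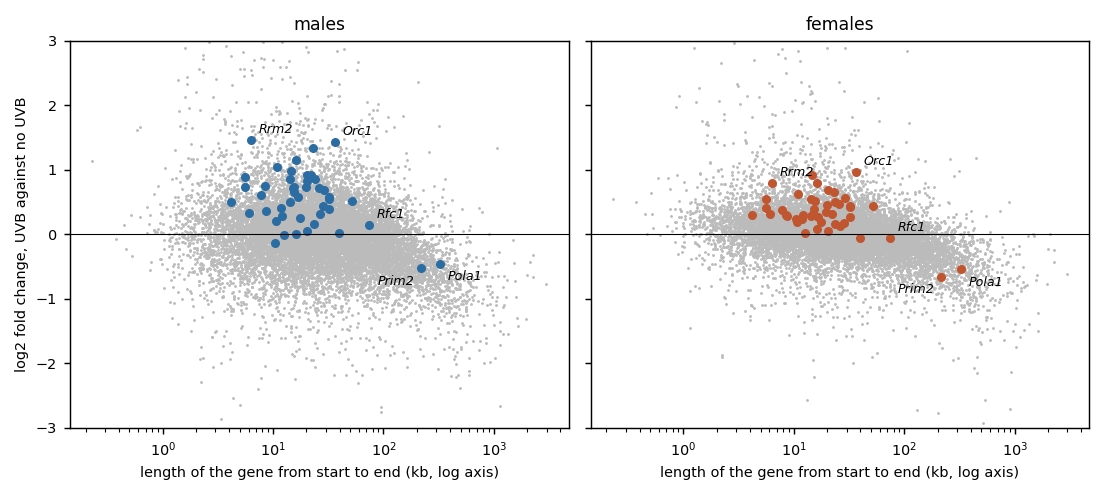
Log2 fold change of UVB against no UVB (y axis) against gene length from start to end (x axis, kb, log scale) for protein-coding genes tested in males (left) and females (right); grey points are all such genes (those beyond 3 in either direction are not drawn) and coloured points the 45 replication and G1/S genes. Fold changes decline toward long genes, and *Pola1* and *Prim2* lie at the long end below 0.

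Genes of flap removal, chromatin assembly and histone mRNA were all higher in males, with a median of 0.74, beside 29.0% of all genes. In females 2 of 5, *Fen1* and *Uhrf1*, were higher, beside 12.8% of all genes. *Uhrf1*, which carries DNA methylation over to the new strand, had the largest change. *Uhrf1* was at 13.9, 12.8, 31.4 and 20.9 CPM in no-UVB males 1 to 4 and at 37.4, 41.5, 29.7 and 39.7 CPM in UVB males 1 to 4. UVB male 3 lay below no-UVB male 3, and control males 1 and 2 lay far below both. The level of *Uhrf1* in no-UVB females 1 to 4 was 14.03, 16.5, 14.6 and 12.4 CPM, and in UVB females 1 to 4 it was 18.6, 22.5, 25.6 and 25.6 CPM. Its response was 0.93 (SE 0.28) in males (adjusted p = 0.0243) and 0.69 (SE 0.12) in females (adjusted p = 0.00482). *Slbp*, which binds the stem-loop of histone mRNAs, had the smallest response of the role in both sexes. No-UVB males 1 to 4 had 21.7, 22.1, 26.9 and 24.3 CPM of *Slbp*, and UVB males 1 to 4 had 27.8, 25.1, 27.4 and 30.6 CPM. Across UVB females 1 to 4, *Slbp* was at 25.7, 26.1, 26.7 and 25.4 CPM, against 24.04, 22.7, 24.1 and 20.2 CPM in no-UVB females 1 to 4. Male groups overlapped and female groups did not, with log2 fold changes of 0.24 (SE 0.086, adjusted p = 0.033) and 0.20 (SE 0.076, adjusted p = 0.108). *Fen1*, the nuclease that trims Okazaki fragments, changed by 0.74 (SE 0.11) and 0.41 (SE 0.093), from counts that used the strand, since it overlaps *Tmem258* on the other strand. *Chaf1a* and *Chaf1b*, subunits of the factor that places histones on new DNA, changed by 0.58 and 0.92 in males and were at 0.27 and 0.31 in females, below the threshold. The fit without no-UVB males 3 and 4 gave 1.51 (SE 0.13) for *Uhrf1* in males and 0.38, 0.92, 0.80 and 1.33 for *Slbp*, *Fen1*, *Chaf1a* and *Chaf1b*, with a median of 0.92.

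Nucleotide supply genes were higher in all 5 cases in males and in 4 of 5 in females, where 29.0% and 12.8% of all genes were. No UVB male overlapped a no-UVB male for any of them, and 22.9% of all genes were higher in males without overlap. *Rrm2*, the small subunit of ribonucleotide reductase made in S phase, had the largest response of the 45 genes in males when all mice were used. Its value was 1.88 (SE 0.11) without no-UVB males 3 and 4, below that of *Orc1* (2.38). Without UVB, *Rrm2* was at 10.9, 10.5, 19.7 and 15.4 CPM in males 1 to 4, and after UVB it was at 38.5, 41.9, 33.3 and 39.4 CPM. The lowest UVB male was well above the highest control. By mouse number, *Rrm2* was at 15.3, 14.9, 13.1 and 13.5 CPM in no-UVB females and at 22.5, 23.8, 26.1 and 25.1 CPM in UVB females. The log2 fold change of *Rrm2* was 1.46 (SE 0.19) in males (adjusted p = 0.000209) and 0.79 (SE 0.085) in females (adjusted p = 0.000351). *Rrm1*, the large subunit of the enzyme, was at 9.90 CPM per kb without UVB, beside 5.40 CPM per kb for *Rrm2*, and changed less. *Rrm1* was at 45.1, 44.1, 54.7 and 55.2 CPM in no-UVB males 1 to 4 and at 73.7, 84.1, 78.8 and 79.98 CPM in UVB males 1 to 4. The level of *Rrm1* in no-UVB females 1 to 4 was 48.9, 46.96, 44.1 and 36.5 CPM, and in UVB females 1 to 4 it was 60.1, 65.3, 70.6 and 63.7 CPM. Groups did not overlap in either sex, with log2 fold changes of 0.69 (SE 0.084, adjusted p = 5.42e-05) and 0.56 (SE 0.095, adjusted p = 0.00376). *Tyms* and *Tk1*, which make and salvage thymidylate, changed by 0.73 and 0.85 in males and 0.52 and 0.55 in females. *Dut*, which removes dUTP, changed by 0.40 in males and was at 0.24 (SE 0.11) in females (adjusted p = 0.169). With the 2 control males left out, *Rrm1*, *Tyms*, *Tk1* and *Dut* were at 0.87, 0.88, 1.17 and 0.45 in males.

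In the E2F and cyclin E switch, 3 of 4 genes were higher in both sexes and *E2f1* in neither, where 29.0% of all genes were higher in males and 12.8% in females. *Ccne1*, encoding cyclin E1, rose. No-UVB males 1 to 4 had 1.82, 2.44, 3.08 and 3.55 CPM of *Ccne1*, and UVB males 1 to 4 had 6.17, 4.66, 4.70 and 6.41 CPM. Across UVB females 1 to 4, *Ccne1* was at 4.43, 4.87, 3.77 and 3.67 CPM, against 2.51, 2.69, 3.04 and 2.68 CPM in no-UVB females 1 to 4. Its groups did not overlap in either sex, with log2 fold changes of 1.05 (SE 0.20, adjusted p = 0.00115) and 0.62 (SE 0.15, adjusted p = 0.0184). *Ccne2*, encoding cyclin E2, changed by 0.97 (SE 0.18) in males and 0.92 (SE 0.13) in females. *E2f2*, an activating E2F factor, rose as well. Without UVB, *E2f2* was at 7.60, 8.52, 16.8 and 12.96 CPM in males 1 to 4, and after UVB it was at 19.6, 21.1, 20.3 and 20.8 CPM. By mouse number, *E2f2* was at 12.99, 12.7, 10.9 and 11.4 CPM in no-UVB females and at 16.5, 16.4, 18.5 and 16.2 CPM in UVB females. Every UVB mouse was above the controls of its sex, with log2 fold changes of 0.85 (SE 0.22, adjusted p = 0.00983) and 0.50 (SE 0.091, adjusted p = 0.00535). *E2f1*, a related activating factor, differed instead between the sexes without UVB. *E2f1* was at 15.8, 14.5, 19.5 and 17.3 CPM in no-UVB males 1 to 4 and at 14.05, 16.3, 14.2 and 15.95 CPM in UVB males 1 to 4. The level of *E2f1* in no-UVB females 1 to 4 was 11.2, 11.7, 11.6 and 10.2 CPM, and in UVB females 1 to 4 it was 11.7, 15.1, 12.5 and 13.1 CPM. All no-UVB males were above all no-UVB females. Its log2 fold change after UVB was -0.13 (SE 0.10) in males and 0.24 (SE 0.10) in females, neither past the threshold, and the male value turned to 0.032 (adjusted p = 0.821) without no-UVB males 3 and 4. The same fit gave 1.38 (SE 0.10) for *E2f2*, 1.42 for *Ccne1* and 1.39 for *Ccne2* in males.

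To ask whether males responded more than females, the difference of the responses was tested in 1 fit of all 16 mice. The difference was positive for 38 of the 45 genes, with a median log2 value of 0.20, beside -0.015 over all genes. It was called for 1 gene, *Rrm2*, at 0.66 (SE 0.21, adjusted p = 0.0987), and 8 of the 45 were at an unadjusted p under 0.05, where 20.8% of all genes were. Of all 17406 genes in this fit, 2.75% were called for a larger value in males and 4.25% for a smaller one, so neither count of replication genes was larger than the share over all genes. The *Rrm2* call lay at the threshold and was lost under 4 other settings and without any of 12 of the 16 mice. *Mcm10* (0.67, SE 0.29, adjusted p = 0.206) and *Chaf1b* (0.60, SE 0.28, adjusted p = 0.232) had values of similar size with larger SE. *E2f1* had the most negative value (-0.39, SE 0.14, adjusted p = 0.139).

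This count changed when control males were left out. Without no-UVB males 3 and 4, 17 of the 45 genes were called for a larger response in males, where 4.60% of all genes were, and the median difference was 0.42. The 17 were *Orc1*, *Cdc6*, *Cdt1*, *Mcm3* to *Mcm6*, *Mcm10*, *Rfc3*, *Prim1*, *Fen1*, *Chaf1b*, *Uhrf1*, *Rrm2*, *Tk1*, *E2f2* and *Ccne1*. Leaving out no-UVB male 3 alone gave 9 (beside 4.21% of all genes) and leaving out male 4 alone gave 0 (beside 1.99%). In males, 38 genes were then called higher after UVB (beside 28.9% of all genes) and 15 passed a log2 fold change of 1 (beside 6.01%), with 12 when male 3 alone was left out (beside 5.08%). Because these 2 mice also had higher levels of the genes themselves, their removal lowers the control mean, and 44 of the 45 male log2 values moved upward, which makes the falls of *Pola1* and *Prim2* smaller. The remaining 2 control males are assumed to vary like the other groups. The part of the hair growth genes in the levels of these 2 mice was not tested.

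**Figure D5:**
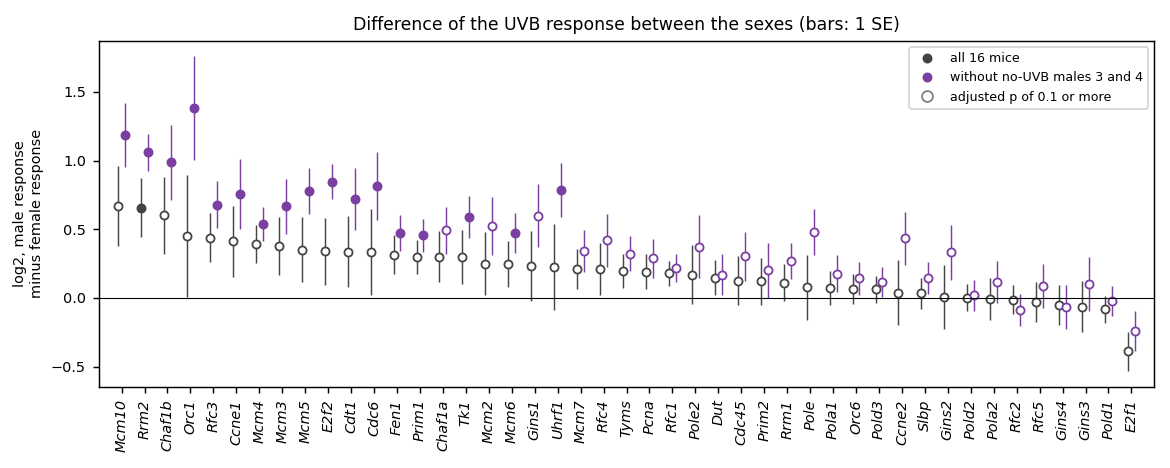
Difference of the log2 response to UVB, males minus females (y axis, with 1 SE), for the 45 genes with all 16 mice (grey) and without no-UVB males 3 and 4 (purple); filled points have an adjusted p under 0.1. With all mice *Rrm2* alone is called, and without the pair 17 genes are.

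The levels in males and females were then compared directly. After UVB, 21 of the 45 genes were higher in males than in females and none was lower, where 12.8% of all genes were higher and 12.5% lower in males. The median log2 difference of the 45 genes after UVB was 0.29, beside -0.0057 over all genes, and 26 genes were higher in males without overlap, which was so for 11.5% of all genes. The values were 0.75 (SE 0.20) for *Mcm10* (adjusted p = 0.018), 0.65 (SE 0.15) for *Rrm2* (adjusted p = 0.00828) and 0.60 (SE 0.17) for *Mcm5* (adjusted p = 0.0227). Leaving out UVB female 1 reduced the count to 12 (beside 7.46% of all genes) and leaving out UVB male 2 to 13 (beside 9.29%). Without UVB, 3 genes were higher in males, *E2f1* (0.59, SE 0.10, adjusted p = 0.00171), *Pold1* (0.25, SE 0.068, adjusted p = 0.0304) and *Tyms* (0.28, SE 0.089, adjusted p = 0.0666), and none was lower, where 7.21% of all genes were higher and 4.58% lower. The count was 6 without no-UVB male 2 (beside 4.33% of all genes). Without no-UVB males 3 and 4, *E2f1* alone was called higher in males without UVB (beside 6.10% of all genes). *E2f2* (-0.57, SE 0.10, adjusted p = 0.00379) and *Rrm2* (-0.41, SE 0.11, adjusted p = 0.0337) were then called lower in males, beside 3.22% of all genes, and 14 of the 45 differences were positive, with a median of -0.075.

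Other genes of the same processes were taken from lists that do not overlap the 45. Of 37 other replication genes, 27 were higher and 1 lower in males, and 12 were higher and 1 lower in females, where 29.0% of all genes were higher in males and 12.8% in females. Their median log2 fold changes were 0.43 and 0.17. *Clspn*, which relays the alarm of a stalled fork, changed by 1.41 (SE 0.19) in males and 0.73 (SE 0.15) in females, and *Ticrr*, needed to fire origins, by 1.39 (SE 0.23) and 0.94 (SE 0.17). Of 25 mitosis genes, 24 were higher in males and 21 in females, beside the same 29.0% and 12.8% of all genes, with medians of 0.92 and 0.47 and none lower. *Mki67*, the common marker of cycling cells, was at 56.2, 55.98, 110.2 and 79.5 CPM in no-UVB males 1 to 4 and 152, 178, 153 and 147 in UVB males 1 to 4. In females *Mki67* was at 79.6, 86.5, 78.3 and 63.1 CPM without UVB and 90.8, 105, 124 and 103 after UVB. No-UVB male 3 was the highest control, as for the replication genes. Its log2 fold change was 1.08 (SE 0.22) in males (adjusted p = 0.00347) and 0.47 (SE 0.11) in females (adjusted p = 0.0203), and that of *Top2a* was 0.99 (SE 0.10) and 0.61 (SE 0.14). Without no-UVB males 3 and 4, 28 of the 37 other replication genes were higher and 1 lower in males (median 0.56), and 24 of the 25 mitosis genes were higher (median 1.25), where 28.9% of all genes were higher and 27.1% lower, with *Clspn* at 1.82, *Ticrr* at 1.90, *Mki67* at 1.53 and *Top2a* at 1.19. For a larger response in males than in females, none of either list was called by edgeR with all mice, with 11 of 37 and 9 of 25 at an unadjusted p under 0.05, beside 20.8% of all genes. That changed to 12 of 37 and 22 of 25 called without the pair, where 4.60% of all genes were.

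Of the regulators of the G1/S transition, 13 of 28 tested in males were higher and 9 lower, where 29.0% of all genes were higher and 30.5% lower. In females 7 of 29 were higher and 2 lower, where 12.8% of all genes were higher and 10.6% lower. Leaving out the same 2 control males gave male counts of 14 higher and 7 lower, beside 28.9% and 27.1% of all genes. *Cdkn1a*, encoding the p21 inhibitor of cyclin-dependent kinases and a known p53 target, rose together with the replication genes. Its level was 173, 153, 169.7 and 159 CPM in no-UVB males 1 to 4 and 328, 318, 326 and 336 in UVB males 1 to 4. In females *Cdkn1a* was at 125, 143, 149.8 and 133 CPM without UVB and 267, 253, 324 and 324 after UVB. The groups lay far apart in both sexes, with log2 fold changes of 1.02 (SE 0.06) in males (adjusted p = 7.12e-07) and 1.09 (SE 0.10) in females (adjusted p = 0.000197). The difference between the sexes was -0.083 (SE 0.12, adjusted p = 0.731). *E2f8*, a repressing E2F factor, changed by 1.15 (SE 0.16) in males and 0.62 (SE 0.10) in females, *Ccna2*, the cyclin of S phase, by 0.98 (SE 0.20) and 0.47 (SE 0.12), and *Ccnd1*, the cyclin of early G1, by 0.25 (SE 0.066) and 0.34 (SE 0.12). In males without the pair of controls, *Cdkn1a*, *E2f8*, *Ccna2* and *Ccnd1* were at 1.045, 1.49, 1.41 and 0.35.

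Markers of several cell types in skin moved with the groups as well. Their counts stand beside the 29.0% of all genes called higher and 30.5% called lower in males and the 12.8% and 10.6% in females, and several of the smaller counts lie near those shares. The summed level of 8 basal keratinocyte genes was 7649.8 to 10274 CPM in no-UVB males and 9602 to 12960.2 in UVB males, and 6197 to 9271 and 5503 to 8487 in females, with 3 genes higher and 2 lower in males and 1 of each in females. That of 8 suprabasal keratinocyte genes was 7254 to 10568 and 19552 to 25609 in males and 6906 to 10125 and 11640.5 to 15433 in females, with 7 of 8 called higher in males and 6 of 8 in females. The 8 fibroblast genes summed to 80337 to 87594 CPM in no-UVB males and 29325 to 40289 in UVB males, where 7 of 8 were lower. In females they summed to 20319.9 to 21594 and 13042 to 23347, where 1 was lower and 1 higher. Their log2 fold changes in males ranged from -1.66 to -0.15 with a median of -0.54, so the genes fell unequally. The 10 neutrophil genes summed to 10.7 to 18.5 CPM without and 53.2 to 159 CPM after UVB in males, where 4 of 6 tested were higher. In females they summed to 10.6 to 16.7 and 20.8 to 30.9 CPM, where 2 of 5 tested were higher. The 6 tested in males had log2 fold changes from -0.52 to 4.55, so the sum does not stand for each gene. The 8 T cell genes were at 216 to 244 and 173 to 187 CPM in males, where all 8 were lower, and at 262 to 276 and 199.7 to 248 CPM in females, where 3 were. The 8 skeletal muscle genes were at 22469.5 to 27824 CPM without and 15818 to 19424 CPM after UVB in males, where 7 were lower, and none was called in females. Of 10 monocyte and macrophage genes, 5 were lower and 2 higher in males and 1 was lower in females, with sums of 1837 to 2432 and 1597 to 1985 CPM in males and 1693 to 2828 and 1469.9 to 2197 CPM in females. Of 7 adipocyte genes, 3 were lower in males and 1 higher in females, with sums of 1700.1 to 2507 and 1502 to 2075 CPM in males and 1904 to 2996 and 1914 to 3762 CPM in females. Compared with UVB females, UVB males had lower levels of 7 adipocyte, 6 T cell, 2 skeletal muscle, 1 suprabasal keratinocyte, 1 monocyte and macrophage and 1 endothelial gene, beside 12.5% of all genes. They had higher levels of 5 suprabasal and 4 basal keratinocyte, 3 fibroblast and 3 neutrophil genes, beside 12.8% of all genes. None of 6 endothelial genes was called after UVB in either sex by edgeR, with 0 in males and 1 in females at an unadjusted p under 0.05. In males without no-UVB males 3 and 4, the genes called higher were 4 basal and 7 suprabasal keratinocyte, 5 neutrophil and 3 monocyte and macrophage genes. Those called lower were 2 basal keratinocyte, 6 fibroblast, 7 T cell, 7 skeletal muscle, 5 monocyte and macrophage and 4 adipocyte genes, and 0 endothelial genes, where 28.9% of all genes were called higher and 27.1% lower. The part of these changes in the responses of the replication genes, or in their difference between the sexes after UVB, was not tested.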

How the data were processed

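RNA of whole dorsal skin from 16 mice was sequenced with a directional kit after poly(A) selection. Reads were aligned to GRCm39 by the authors with STAR (version not given in the sources used here), who deposited whole-number counts per gene and mouse, without normalization. The strand-specific counts were used, and reads on no gene (9.35 to 16.1% of those counted) or on several genes (1.36 to 1.53%) stayed out. The count of reads mapping to several places was listed as 0 and does not show reads shared between near-identical genes. The depth limits precision most for *Orc1*, with 15 to 133 reads.

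Genes were kept by filterByExpr, libraries were scaled by TMM and the quasi-likelihood test of edgeR 4.0.16 (R 4.3.3, robust) was applied, in the 8 mice of each sex for the response to UVB and in all 16 for differences between the sexes, with p adjusted (Benjamini-Hochberg) over all genes tested. DESeq2 1.42.0, with apeglm 1.24.0, other scalings, filters and count columns, a replicate block and leaving out mice served as alternatives. Gene names and positions came from GENCODE M39 and promoters from RefSeq (table of GRCm38.p6). The 45 genes, their roles and the other lists were chosen with earlier results of these data known. Genes given mouse by mouse were, for each role, that of highest mean CPM and that of largest male response, those called for the difference between the sexes, and those of smallest response; others are named with their fold change, *E2f1*, *Pola1* and *Krt71* by mouse after their values were seen. Replicate numbers did not pair the mice (correlations of deviations -0.22 to 0.35). No 2 libraries of a group agreed within sampling noise (chi-square per degree of freedom 10.4 to 109). The procedure was tested on simulated data before use. Figures were drawn with matplotlib 3.10.9. A gene of the repair list is not reported here.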

Additional observations from a re-analysis of the deposited data

Results flagged for a closer look

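Each of the 45 genes was checked in each group of 4 mice for a mouse far from the other 3, which gave 11 of 180 groups, where chance gives about 1 in 20. In UVB males these were *Dut* in male 2 (17.5 CPM) and *Pcna* (96.1 CPM), *Pole2* (6.26 CPM) and *Prim1* (23.2 CPM) in male 4. In UVB female 3 they were *E2f2* (18.5 CPM), *Orc6* (23.02 CPM) and *Pole* (16.3 CPM), which were high, and *Prim2* (3.69 CPM), which was low. In no-UVB females they were *Dut* (15.1 CPM) and *Prim2* (8.70 CPM) in female 1 and *Pola2* (14.8 CPM) in female 2.

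*Rrm2* was called for a difference between the sexes in the response to UVB, with a log2 difference of 0.66 (SE 0.21, edgeR adjusted p = 0.0987), and all 4 UVB males were above all 4 UVB females. It was 1 of the 45 genes so called, beside 2.75% of all genes, and the call was lost under 4 other settings and without any of 12 of the 16 mice.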

How the results depend on the processing

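The counts of 35 genes higher in males and of 2 lower in each sex stayed within 1.5 times under every alternative run. The median response of the 45 genes within each sex stayed within the spread of the mice under every alternative run. In males that spread includes no-UVB males 3 and 4, and the median went from 0.58 to 0.76 without them. Without no-UVB males 3 and 4, the male median of primase and polymerase genes went from 0.17 to 0.31 and that of the E2F and cyclin E genes from 0.91 to 1.39. In females, 28 genes higher became 18 at an adjusted p under 0.05 and 18 to 29 when leaving out each mouse in turn; past a log2 fold change of 1, leaving out mice gave 0 to 1. In males, the 5 genes past a log2 fold change of 1 became 4 to 12 when leaving out each mouse and 15 without no-UVB males 3 and 4. The single call for a larger response in males became 0 at an adjusted p under 0.05, under upper quartile scaling, with counts without regard to strand and with every gene of at least 1 count, 3 in DESeq2's Wald test, 0 to 9 when leaving out each mouse and 17 without the pair, where the median difference was 0.42. Genes higher in males without UVB numbered 1 with every gene of at least 1 count, 1 without the pair and 2 to 6 when leaving out each mouse; after UVB they numbered 12 to 21. The replicate block gave 0 calls for a larger response in males and 22 genes higher in females, and the numbers did not pair the mice.

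Small values changed sign: *Gins4* in males (0.0013 with every gene of at least 1 count, 0.0258 with thinned counts, -0.0702 to 0.0341 leaving out each mouse), *Gins4* in females (-0.0184 under upper quartile scaling, -0.0591 to 0.0785 leaving out each mouse) and *Pold3* in males (-0.0643 under upper quartile scaling, -0.0382 with thinned counts, -0.0086 with all 16 mice, -0.0229 to 0.078 leaving out each mouse). Without no-UVB males 3 and 4, *E2f1* (-0.13 with all mice, 0.032 without) and *Rfc2* (0.052 and -0.00091) changed sign in males. The cause was not tested. With all mice, the smallest called rise was 0.24 in males (*Slbp*) and 0.26 in females (*Prim1*), while *Chaf1b* at 0.31 in females was not called.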

Other observations

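Of 20 genes that repair stalled forks and strand breaks, 14 were higher after UVB in males and 8 in females, and 1 was lower in females. Their medians were 0.51 and 0.29 on the log2 scale. Of all genes, 29.0% were higher in males, and 12.8% were higher and 10.6% lower in females. When no-UVB males 3 and 4 were left out, 18 of the 20 were higher in males (median 0.71), beside 28.9% of all genes. *Exo1*, a nuclease that trims broken ends, changed by 1.26 (SE 0.22) in males (edgeR adjusted p = 0.000618) and 0.86 (SE 0.19) in females (adjusted p = 0.0119), and by 1.65 in males without the pair.

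*Cdkn1c*, encoding the p57 inhibitor of cyclin-dependent kinases and named after its values were seen, was called for a smaller response to UVB in males than in females. It was 1 of 29 G1/S regulators so called and none was called for a larger one, where 4.25% of all genes were called smaller and 2.75% larger in males, so the list stood no higher than all genes. Its level was 28.3 ± 3.26 CPM in no-UVB males, 17.03 ± 4.54 in UVB males, 20.96 ± 3.82 in no-UVB females and 24.4 ± 3.19 in UVB females (mean ± SD, n = 4). The log2 fold change was -0.73 (SE 0.19) in males and 0.23 (SE 0.14) in females, and the difference was -0.97 (SE 0.25, edgeR adjusted p = 0.0521). With no-UVB males 3 and 4 left out, the male response was -0.67 and the difference -0.92 (adjusted p = 0.0902), and 4 regulators were then called for a larger response in males, beside 4.60% of all genes.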
